A study of Mus musculus with 8 samples.

Results

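The 10 genes described here belong to hypothalamic development and histamine synthesis and were followed across 8 brain arrays. They are Hdc, Otp, Sim1, Nkx2-1, Nkx2-4, Nr5a1, Fezf1, Rax, Six3 and Hmx3, which are 10 of the 19938 genes that a probe set measured under 1 symbol. Hdc and Otp were picked because their signals differed between the groups of these same arrays, so their differences are given as descriptions without a test. The other 8 were chosen by name, as genes of the same brain region, with earlier results of these data known. Each of the 10 has 1 probe set on the array.

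The arrays are Affymetrix Mouse Gene 1.0 ST arrays, hybridised with total RNA from frozen brains of adult male mice aged 2 to 4 months. By their titles, 4 are biological replicates of TNF-/- and 4 of TNF+/+ C57BL/6, none of them treated. The labels give no allele, strain or control littermates for TNF-/-, and no brain region. The study asked what a missing gene for tumour necrosis factor (TNF), an inflammatory cytokine, does to the brain, its monoamines and its cell composition included. Values are the authors' log2 signals, and a difference is arrays labelled TNF-/- minus arrays labelled TNF+/+.

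The hypothalamus is built by transcription factors that act in turn in the embryo, and some of them stay on in the adult neurons of single nuclei. Six3 and Rax set up the anterior neural plate and the hypothalamic field, Nkx2-1 marks its basal part, and Otp and Sim1 are needed for the peptide neurons of the paraventricular and supraoptic nuclei. Nr5a1 and Fezf1 belong to the ventromedial nucleus. Histidine decarboxylase, the product of Hdc, makes histamine, and in the brain the neurons that hold it lie in the tuberomammillary nucleus of the posterior hypothalamus. Mast cells, a kind of immune cell, also make histamine.

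The signal of Tnf went against the labels: it was 5.67, 5.87, 5.92 and 6.21 in TNF-/- arrays 1 to 4 and 4.48, 4.93, 4.24 and 4.47 in TNF+/+ arrays 1 to 4 (limma, adjusted p = 0.0278). That call was lost with the replicate block (adjusted p = 0.129), without TNF+/+ arrays 3 and 4 (0.216) and in 7 of 8 fits with 1 array left out (adjusted p from 0.0321 without TNF+/+ array 2, where it passed, to 0.114 without TNF-/- array 3), while the difference stayed above 0. The deleted part and the place of the probes are not given in the sources used here, so every direction below is that of arrays as labelled. The median signal was 5.03 to 5.11 per array, and arrays correlated with r of 0.986 to 0.993 over probe sets. Genes that define brain tissue were bright, with Snap25, a synaptic gene, at 11.78 or higher and Mbp, a myelin gene, at 10.15 or higher in all 8 arrays. Where 47.8% of all genes were higher under TNF-/-, 2 of the 8 measured brain cell markers were higher and 6 lower. Of these 8, 0 passed in limma or SAM and, against 10.8% of all probe sets, 1 had an unadjusted p under 0.05. This was Gfap, the filament gene of astrocytes, at 7.82, 7.62, 8.12 and 7.91 in TNF-/- arrays 1 to 4 and 8.06, 8.11, 8.25 and 8.43 in TNF+/+ arrays 1 to 4, a difference of -0.34 ± 0.12 (SE; limma, adjusted p = 0.381). TNF-/- array 3 overlapped with the arrays labelled TNF+/+, and the part of Gfap in the results below was not tested. TNF+/+ array 1 stood apart in cerebellar genes, with a list mean of 6.86 against 5.16 to 5.32 in the other 7 arrays. Gabra6 of this list was at 8.21 there and at 4.01 to 4.42 in the other 7, near the arrays' 25th percentiles of 3.95 to 4.04. Cbln1 of the same list was at 6.66 or higher in those 7. How much cerebellum each sample held was not tested. In whole tissue, fewer cells of a type and less RNA per cell cannot be told apart.

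Hdc had the higher signal in the arrays labelled TNF-/-. Its signals were 4.62, 4.66, 4.92 and 5.05 in TNF-/- arrays 1 to 4, and 4.22, 4.35, 4.39 and 4.42 in TNF+/+ arrays 1 to 4. All 4 arrays labelled TNF-/- lay above all 4 labelled TNF+/+, with a gap of 0.20 between the nearest arrays, and TNF-/- arrays 3 and 4 stood highest. The means were 4.81 ± 0.20 (SD, n = 4) and 4.34 ± 0.09 (SD, n = 4), which differ by 0.47 ± 0.10 (SE; log2), or 1.38-fold with a 95% interval of 1.18 to 1.63. Groups that do not overlap with TNF-/- on top occurred in 3.15% of all 35556 probe sets, and nothing is read from Hdc being one of them.

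Otp, a homeodomain transcription factor of peptide neurons, had the lower signal in the arrays labelled TNF-/-. Its signals were 5.62, 5.56, 5.60 and 5.66 in TNF-/- arrays 1 to 4, and 5.81, 5.95, 5.95 and 5.89 in TNF+/+ arrays 1 to 4. The groups did not overlap, the gap between the nearest arrays was 0.15, and arrays within a group lay close together. The means were 5.61 ± 0.04 (SD, n = 4) and 5.90 ± 0.06 (SD, n = 4), a difference of -0.29 ± 0.05 (SE), so that the signal was 81.8% of that under TNF+/+. Groups that do not overlap with TNF-/- below occurred in 3.48% of all probe sets. Otp was the only one of the 10 genes whose signal exceeded the array median in all 8 arrays; the other 9 lay below it in all 8.

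**Figure D1:**
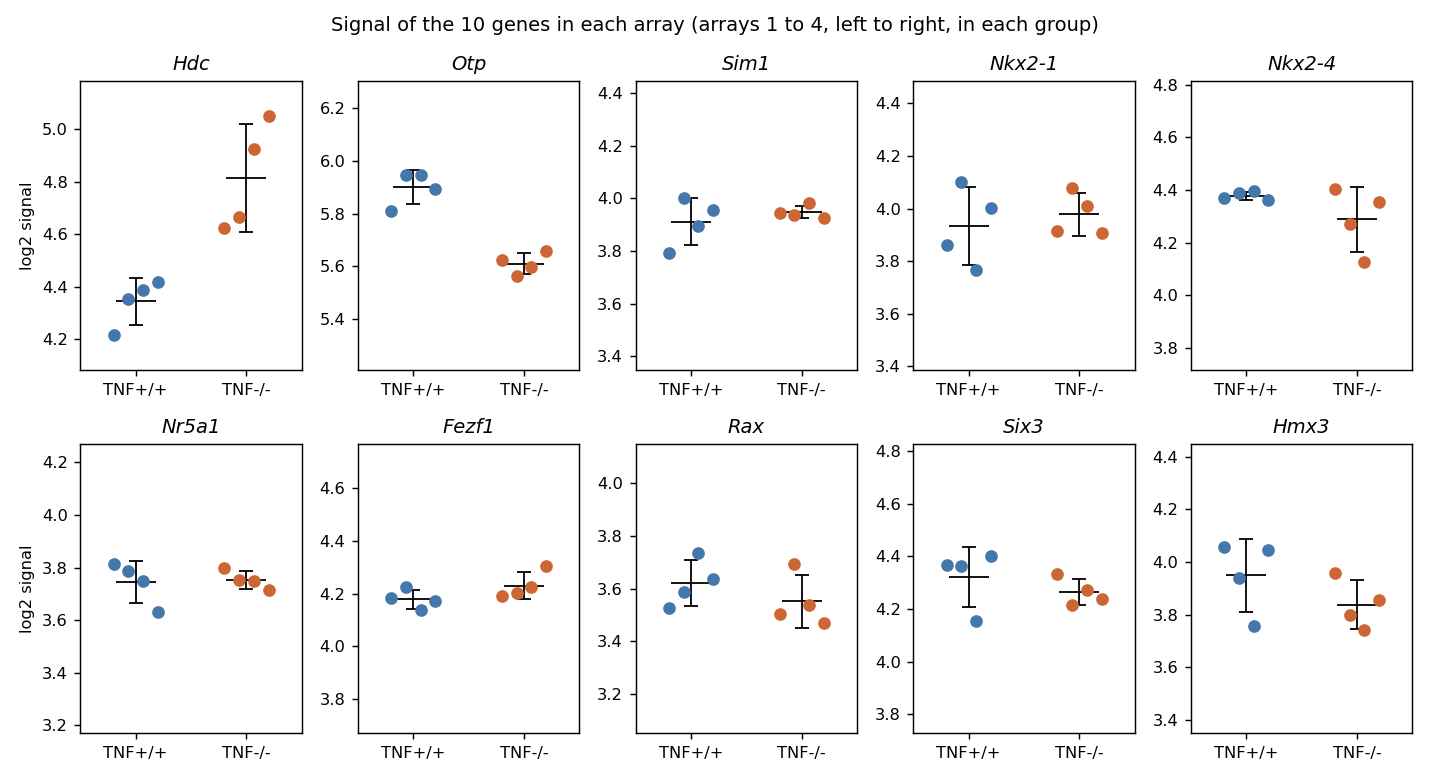
The log2 signal of each of the 10 genes (vertical axis, the same span in every panel) in the 4 arrays labelled TNF+/+ (blue) and the 4 labelled TNF-/- (orange); bars are the mean and SD. The groups are apart in Hdc, with a gap of 0.20, and in Otp, with a gap of 0.15, and overlap in the other 8 genes.

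The sequences before the start sites of these 2 genes are shown because they alone of the 10 had groups that did not overlap. The windows come from RefSeq's GRCm38.p6 and hold the 250 bases before the annotated start, 5′ to 3′ on the gene's own strand. That of Hdc is chr2:126618679-126618928 (minus strand) and that of Otp is chr13:94875386-94875635 (plus strand). Capitals mark the GC box and, in Otp, also a CCAAT box on the opposite strand.
Hdc: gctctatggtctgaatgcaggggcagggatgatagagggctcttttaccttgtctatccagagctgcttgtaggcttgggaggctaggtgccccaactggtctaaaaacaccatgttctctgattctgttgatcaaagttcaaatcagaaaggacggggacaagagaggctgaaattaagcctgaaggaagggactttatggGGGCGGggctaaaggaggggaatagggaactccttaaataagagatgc
Otp: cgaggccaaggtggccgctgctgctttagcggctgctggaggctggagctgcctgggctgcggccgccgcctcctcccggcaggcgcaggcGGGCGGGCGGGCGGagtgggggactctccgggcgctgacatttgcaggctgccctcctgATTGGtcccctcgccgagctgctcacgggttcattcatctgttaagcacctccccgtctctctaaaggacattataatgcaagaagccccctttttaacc

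Both windows hold the GC box letters GGGCGG, once in Hdc, from -48 to -43 relative to the start, and in Otp as 3 overlapping matches from -159 to -146. It occurs on either strand in 32.7% of 32851 such windows. The Otp window also holds the CCAAT box on the opposite strand, from -100 to -96, which 33.8% of windows have. Also searched on both strands were the letters TATAAA, of the box named after them (12.4% of windows), the E-box core CACGTG (6.02%) and the homeodomain core TAATTA (4.84%), and neither window holds any of these. The Hdc window is 48.8% G and C and the Otp window 65.2%, around a median of 52.4% over all windows. The table gave a window for 8 of the 10 genes.

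Among the developmental factors, the closest partner of Otp is Sim1, which is needed for the same paraventricular and supraoptic neurons. Sim1 signals were 3.95, 3.94, 3.98 and 3.93 in TNF-/- arrays 1 to 4, and 3.79, 4.00, 3.90 and 3.96 in TNF+/+ arrays 1 to 4. The groups overlapped, and the 4 arrays labelled TNF-/- fell within the range of the other 4. The difference was 0.04 ± 0.06 (SE) with a 95% interval of -0.10 to 0.17 (limma, adjusted p = 0.841). In 6 of 8 arrays the signal lay below the array's 25th percentile of all probe sets.

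Nkx2-1 and Nkx2-4 encode closely related homeodomain proteins of the basal hypothalamus, and Nkx2-1 also marks interneurons born in the basal forebrain. Nkx2-1 signals were 3.92, 4.08, 4.01 and 3.91 in TNF-/- arrays 1 to 4, and 3.86, 4.10, 3.77 and 4.00 in TNF+/+ arrays 1 to 4. The lowest and the highest of the 8 values were both labelled TNF+/+. The difference was 0.04 ± 0.08 (SE), with a 95% interval of -0.14 to 0.23 (limma, adjusted p = 0.866). Nkx2-4 signals were 4.40, 4.27, 4.12 and 4.35 in TNF-/- arrays 1 to 4, and 4.37, 4.39, 4.39 and 4.36 in TNF+/+ arrays 1 to 4. The 4 arrays labelled TNF+/+ agreed to within an SD of 0.02, while those labelled TNF-/- had an SD of 0.12 and reached both higher and lower. The difference was -0.09 ± 0.07 (SE), with a 95% interval of -0.24 to 0.06 (limma, adjusted p = 0.646).

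Nr5a1, which encodes steroidogenic factor 1, is needed for the ventromedial nucleus and also works in the pituitary and adrenal gland. Its signals were 3.80, 3.75, 3.75 and 3.71 in TNF-/- arrays 1 to 4, and 3.81, 3.79, 3.75 and 3.63 in TNF+/+ arrays 1 to 4. The difference was 0.01 ± 0.06 (SE), with a 95% interval of -0.12 to 0.14 (limma, adjusted p = 0.972). All 8 signals lay below the 25th percentile of their array. Fezf1, a zinc finger factor of the same nucleus and of the developing olfactory system, had signals of 4.19, 4.20, 4.23 and 4.30 in TNF-/- arrays 1 to 4, and 4.18, 4.22, 4.14 and 4.17 in TNF+/+ arrays 1 to 4. TNF-/- array 4 was the highest, and the difference was 0.05 ± 0.05 (SE), with a 95% interval of -0.06 to 0.17 (limma, adjusted p = 0.728).

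Rax and Six3 act early in the hypothalamus and the eye, and Rax remains on in tanycytes, the glia-like cells of the third ventricle's floor. Rax signals were 3.50, 3.69, 3.54 and 3.47 in TNF-/- arrays 1 to 4, and 3.53, 3.59, 3.73 and 3.63 in TNF+/+ arrays 1 to 4. The difference was -0.07 ± 0.07 (SE), with a 95% interval of -0.23 to 0.09 (limma, adjusted p = 0.738), and all 8 signals lay below their array's 25th percentile. Six3, which adult striatal neurons also use, had signals of 4.33, 4.22, 4.27 and 4.24 in TNF-/- arrays 1 to 4, and 4.37, 4.36, 4.15 and 4.40 in TNF+/+ arrays 1 to 4. TNF+/+ array 3 held the lowest Six3 signal and the other 3 of its group the highest. The difference was -0.06 ± 0.07 (SE), with a 95% interval of -0.21 to 0.10 (limma, adjusted p = 0.778).

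Hmx3, a homeodomain factor of the hypothalamus and inner ear, had signals of 3.96, 3.80, 3.74 and 3.85 in TNF-/- arrays 1 to 4, and 4.06, 3.94, 3.76 and 4.05 in TNF+/+ arrays 1 to 4. The groups overlapped, and the lowest array of each group was array 3. The difference of -0.11 ± 0.08 (SE) had a 95% interval of -0.30 to 0.08 (limma, adjusted p = 0.639). That interval reaches furthest from 0 among the 8 genes chosen by name.

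None of these 8 genes passed in limma at an adjusted p under 0.05, where 0.0816% of all probe sets did. At an unadjusted p under 0.05 there were also 0 of 8, against 10.8% of all probe sets, and Significance Analysis of Microarrays (SAM), the test that the study's design names, gave 0 of 8 against 0.149%. A p that misses the threshold does not show equal levels, and the intervals reach as far as -0.30 (Hmx3) and 0.23 (Nkx2-1) on the log2 scale. Of all 10 genes 5 were higher and 5 lower under TNF-/-, with a median of -0.03, beside 47.8% higher and a median of -0.01 over all genes. For the dimmest of them the spread of the arrays matters: the 25th percentile of signal was 3.95 to 3.97 under TNF-/- and 4.00 to 4.04 under TNF+/+. The 8889 probe sets with the lowest mean signal (the dimmest 25% of all) had a median difference of -0.05. After quantile normalization, which gives all arrays 1 distribution, Nr5a1 differed by 0.05, Rax by -0.03, Hmx3 by -0.07 and Sim1 by 0.08. The part of the spread in their small differences was not tested further.

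**Figure D2:**
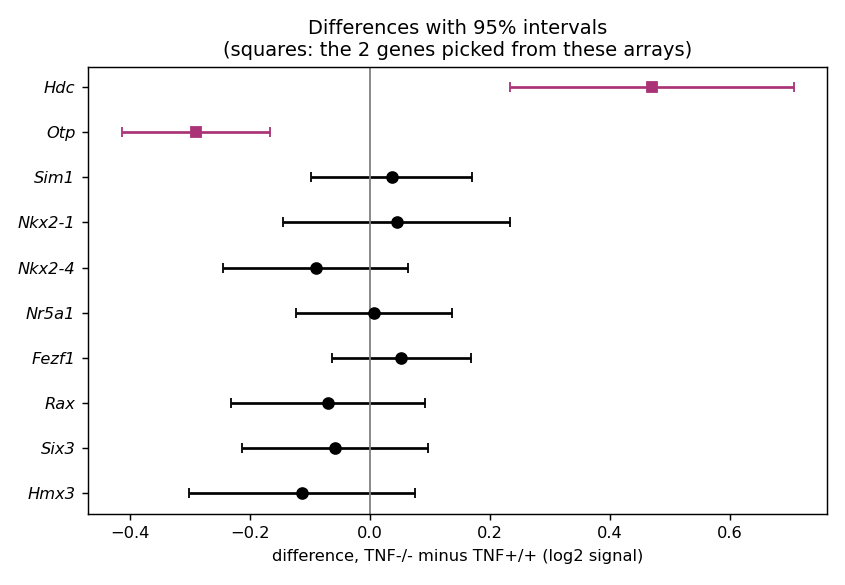
The difference in log2 signal, TNF-/- minus TNF+/+ (horizontal axis), of each of the 10 genes with limma's 95% interval, 4 arrays per group; squares mark the 2 genes picked from these arrays. Hdc stands at 0.47 and Otp at -0.29, and the other 8 lie between -0.11 and 0.05 with intervals that include 0.

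The 10 genes were then compared from array to array. For each of the 45 pairs, deviations from the group means were correlated over the 8 arrays, which leaves out the difference that picked Hdc and Otp. Pearson's r ran from -0.64 to 0.86 with a median of -0.00, and r was above 0 in 22 pairs. By an exact permutation test within groups (two-sided), 2 of 45 pairs had an unadjusted p under 0.05, and 0 an adjusted p under 0.05 (lowest 0.898). Those were Six3 with Hmx3 (r = 0.86, exact p = 0.033; Spearman's rho = 0.81, exact p = 0.033; r = 0.65 without the 2 arrays farthest from the median of Six3) and Hdc with Nr5a1 (r = -0.59, exact p = 0.0399; rho = -0.74, exact p = 0.00347; r = -0.50 without the 2 farthest in Hdc). Adjusted over the 45 pairs, the exact permutation p of rho was 0.742 for Six3 with Hmx3 and 0.156 for Hdc with Nr5a1. All 8 Nr5a1 signals lay below the 25th percentile of their array. Hdc and Otp gave r = 0.55 (exact p = 0.118) and rho = 0.24 (exact p = 0.479), and r = 0.66 without the 2 farthest arrays.

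The other genes of the histamine pathway were compared next. None of the 9 measured of 10 listed passed in limma or SAM, and 2 had an unadjusted p under 0.05, against 10.8% of all probe sets. Under TNF-/- 6 were higher and 3 lower, beside 47.8% of all genes higher. The median was 0.07 against -0.01 over all genes. Slc18a2 encodes the vesicular transporter that loads histamine, and also serotonin, dopamine and noradrenaline, into vesicles. Its signals were 6.22, 6.60, 6.95 and 6.99 in TNF-/- arrays 1 to 4, and 5.91, 5.96, 6.46 and 5.95 in TNF+/+ arrays 1 to 4. TNF+/+ array 3 overlapped with the arrays labelled TNF-/-, and the difference was 0.62 ± 0.19 (SE; limma, adjusted p = 0.336). Maob, the monoamine oxidase that clears the methylated product of histamine, differed by 0.20 ± 0.10 (SE; adjusted p = 0.497). Hnmt, the enzyme that methylates histamine in the brain, differed by 0.13 ± 0.12 (SE; adjusted p = 0.713).

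Of the histamine receptors, Hrh3, which sits on histamine neurons and other nerve endings and holds back release, had signals of 7.42, 7.31, 7.34 and 7.31 in TNF-/- arrays 1 to 4. In TNF+/+ arrays 1 to 4 they were 7.44, 7.46, 7.52 and 7.44, all above the 4 others. The difference was small, at -0.12 ± 0.05 (SE), and did not pass (limma, adjusted p = 0.455). Groups that do not overlap with TNF-/- below occurred in 3.48% of all probe sets. Hrh1 differed by 0.06 ± 0.10 (SE), Hrh2 by 0.07 ± 0.06 and Hrh4, a receptor mainly of blood cells, by -0.04 ± 0.06 (limma, adjusted p = 0.859, 0.683 and 0.832).

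Mast cell genes were counted because these cells also use Hdc. Of 8 measured, 0 passed in limma or SAM and 0 had an unadjusted p under 0.05, against 10.8% of all probe sets. Where 47.8% of all genes were higher under TNF-/-, 1 of these 8 was higher and 7 were lower, with a median of -0.04. Their summed linear signal was 291 to 316 under TNF-/- and 272 to 314 under TNF+/+, most of it from Kit, which brain neurons also use. The defining gene Cpa3, a mast cell protease, was at 3.66 to 3.81 under TNF-/- and 3.74 to 3.79 under TNF+/+. Below the 25th percentile in all arrays lay 4 of the 8 genes. The dimmest 25% of all probe sets had a median difference of -0.05, and its part in the count of lower mast cell genes was not tested.

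Some genes of serotonin and dopamine neurons had a wide range over the 8 arrays, 2.85 for Tph2 and 1.90 for Slc6a4, and others a narrow one, 0.21 each for En1 and Pitx3, which help to specify midbrain neurons. All 7 measured of this list were higher under TNF-/-, where 47.8% of all genes were, with a median of 0.30 against -0.01 over all genes. Of these, En1 differed by 0.01 ± 0.06 (SE) and Pitx3 by 0.03 ± 0.06. Their signals lay below the array's 25th percentile in 8 (En1) and 6 (Pitx3) of 8 arrays. In limma or SAM 0 of the 7 passed, and 2 had an unadjusted p under 0.05, against 10.8% of all probe sets. Those were Slc6a3, with a difference of 0.30 ± 0.11 (SE), and Ddc, with 0.31 ± 0.13 (limma, adjusted p = 0.407 and 0.444). The summed linear signal of the 7 genes was 434 to 722 under TNF-/- and 400 to 575 under TNF+/+. Tph2, the serotonin synthesis gene, had signals of 4.02, 6.01, 6.66 and 6.87 in TNF-/- arrays 1 to 4, and 4.27, 5.01, 6.27 and 5.02 in TNF+/+ arrays 1 to 4. Under TNF-/- the arrays thus had the same order in Tph2 as in Hdc, while under TNF+/+ array 3 was highest in Tph2 and array 4 in Hdc. The groups overlapped in Tph2, with a difference of 0.75 ± 0.65 (SE; limma, adjusted p = 0.697).

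Hdc and Otp were each set against the 16 measured genes of the histamine and of the serotonin and midbrain lists, 32 relations chosen after the values were seen. On deviations from group means over 8 arrays 6 had an unadjusted p under 0.05 and none an adjusted one (exact permutation within groups, two-sided). Hdc gave r = 0.80 with Ddc, the decarboxylase of serotonin and dopamine synthesis (rho = 0.67; exact p = 0.0156 and 0.0694; adjusted p = 0.222 for r), and r = 0.74 without the 2 arrays farthest in Hdc. With Tph2 it gave r = 0.78 (rho = 0.69; exact p = 0.0295 and 0.0451; adjusted p = 0.236 for r), and 0.58 without them. With Slc6a4, the serotonin transporter gene, it gave r = 0.79 (rho = 0.71; exact p = 0.0417 and 0.066; adjusted p = 0.241 for r), and 0.43 without them. The other 3 of the 6 were those of Otp. With Hrh2, a histamine receptor gene, Otp gave r = -0.88, the farthest from 0 of the 32 (rho = -0.86; exact p = 0.0208 and 0.033; adjusted p = 0.222 for r), and r = -0.84 without the 2 arrays farthest in Otp. With Slc29a4, a monoamine uptake transporter gene, it gave r = 0.84 (rho = 0.86; exact p = 0.0156 and 0.0122; adjusted p = 0.222 for r), and 0.46 without them. With Ddc it gave r = 0.80 (rho = 0.76; exact p = 0.0451 and 0.0556; adjusted p = 0.241 for r), and 0.50 without them. Relations of like size missed an unadjusted p under 0.05, such as Hdc with Th, the tyrosine hydroxylase gene (r = 0.85; rho = 0.90; exact p = 0.0712 and 0.0521), and Hdc with Slc18a2 (r = 0.77; rho = 0.64; exact p = 0.0694 and 0.0903).

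TNF-/- arrays 3 and 4 were high in Hdc, Tph2, Slc6a4 and Slc18a2 alike. The part of these other genes in the difference in Hdc was not tested. In TNF-/- array 1 the Tph2 signal (4.02) and the Slc6a4 signal (4.68) were the lowest of all 8 arrays. Slc18a2 (6.22) and Ddc (6.42) lay there above TNF+/+ arrays 1, 2 and 4 and below TNF+/+ array 3, and Th (7.15) above TNF+/+ array 1 alone. The Hdc signal lay above those of all 4 arrays labelled TNF+/+. Hdc was picked for that difference, and nothing is read from the contrast.

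**Figure D3:**
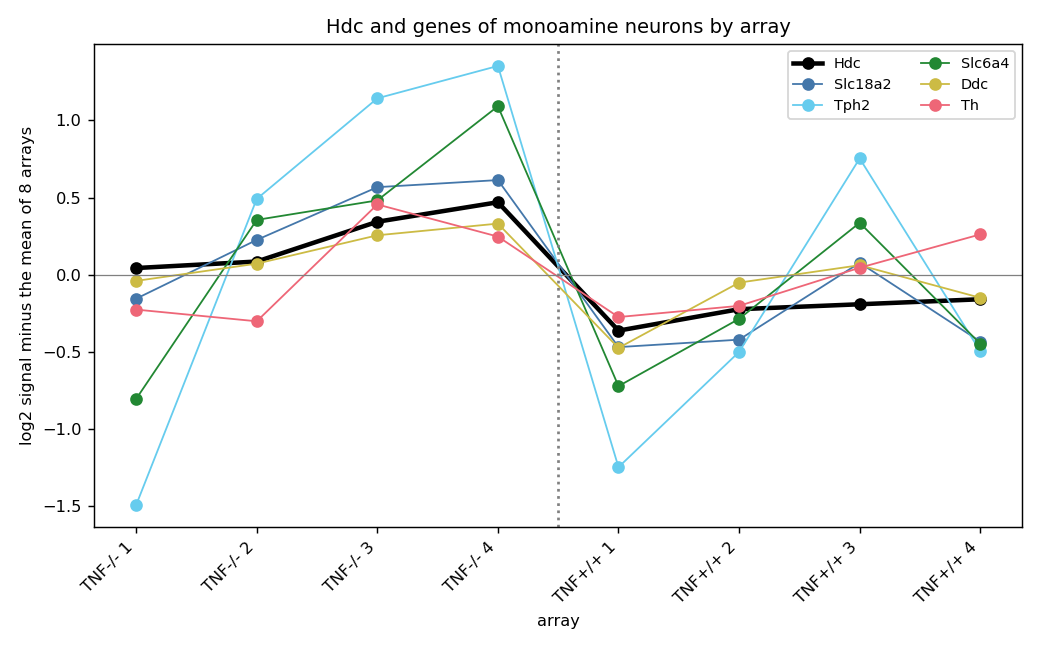
The log2 signal of Hdc (black) and of 5 genes of monoamine neurons, each minus its mean over 8 arrays (vertical axis), in each array (horizontal axis); lines only join the points of a gene, and the dotted line parts the groups. In TNF-/- array 1 Tph2, at 4.02, and Slc6a4, at 4.68, are the lowest of their 8 values. Slc18a2 and Ddc lie there above their values in TNF+/+ arrays 1, 2 and 4. Hdc, at 4.62, lies above its 4 values under TNF+/+.

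Other transcription factors of the hypothalamus did not pass either: 0 of 24 measured of 27 listed passed in limma or SAM. At an unadjusted p under 0.05 there were 3, against 10.8% of all probe sets. Of the 24, 12 were higher and 12 lower under TNF-/-, with a median of 0.02, beside 47.8% higher and a median of -0.01 over all genes. Isl1, a LIM homeodomain factor of arcuate and of striatal neurons, differed by 0.32 ± 0.11 (SE; limma, adjusted p = 0.372). Its signals of 4.92, 4.92, 5.32 and 5.24 under TNF-/- lay above those of 4.86, 4.77, 4.86 and 4.63 under TNF+/+. Groups apart in this direction occurred in 3.15% of all probe sets. Sox3, a factor of neural progenitors and the pituitary field, differed by -0.16 ± 0.06 (SE; adjusted p = 0.41), and Six6, a relative of Six3, by -0.17 ± 0.07 (SE; adjusted p = 0.44). Hmx2, the neighbour and close relative of Hmx3, differed by 0.04 ± 0.09 (SE; adjusted p = 0.902), and Fezf2, the relative of Fezf1 in cortical neurons, by 0.15 ± 0.09 (SE; adjusted p = 0.552).

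Peptide genes of adult hypothalamic neurons, which the factors above help to specify, gave 0 of 17 measured of 18 listed in limma or SAM. At an unadjusted p under 0.05 there was 1, against 10.8% of all probe sets. Of the 17, 11 were higher and 6 lower under TNF-/-, with a median of 0.05, beside 47.8% higher and a median of -0.01 over all genes. Cartpt, a peptide gene of several hypothalamic nuclei and other regions, differed by 0.40 ± 0.16 (SE), Pmch, the melanin-concentrating hormone gene of the lateral hypothalamus, by 0.40 ± 0.22, and Crh, the corticotropin-releasing hormone gene, by -0.10 ± 0.06 (limma, adjusted p = 0.43, 0.552 and 0.59). Some peptides are made by the neurons that need Otp and Sim1. Among these Oxt, the oxytocin gene, had signals of 6.91, 6.16, 7.28 and 6.45 in TNF-/- arrays 1 to 4, and 5.80, 6.04, 6.60 and 7.45 in TNF+/+ arrays 1 to 4. Its arrays spread widely and overlapped, with a difference of 0.23 ± 0.37 (SE; limma, adjusted p = 0.845). Avp, the vasopressin gene, differed by 0.11 ± 0.11 (SE) and Trh, the thyrotropin-releasing hormone gene, by 0.28 ± 0.18 (limma, adjusted p = 0.739 and 0.591).

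Hcrt, the hypocretin gene of lateral neurons that excite histamine neurons, had signals of 5.48, 5.50, 5.16 and 5.28 in TNF-/- arrays 1 to 4, and 4.78, 5.71, 5.33 and 5.40 in TNF+/+ arrays 1 to 4. The groups overlapped, and the difference was 0.05 ± 0.18 (SE; limma, adjusted p = 0.936). TNF+/+ array 1 held the lowest signal of Hcrt, of Pmch (5.94), of Oxt (5.80), of Cartpt (5.69), of Sim1 and of Hdc among the 8 arrays. Its mean of the peptide list was 5.11, against 5.31 to 5.40 in the other 7 arrays. Without this array Hdc differed by 0.43 and Otp by -0.32, and Sim1 by -0.00 on the log2 scale.

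**Figure D4:**
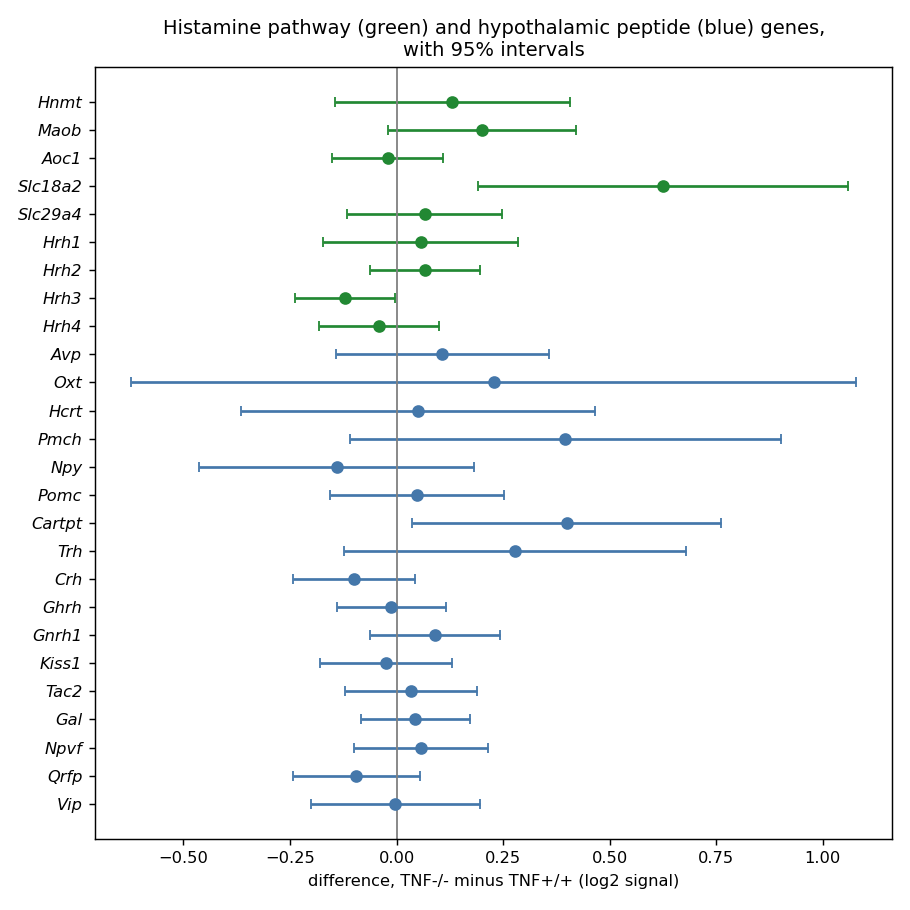
The difference in log2 signal, TNF-/- minus TNF+/+ (horizontal axis), of 9 other histamine pathway genes (green) and 17 hypothalamic peptide genes (blue), with limma's 95% intervals for single genes, 4 arrays per group. Slc18a2 at 0.62 and Cartpt at 0.40 lie farthest from 0 among those whose interval leaves it out, and none passed an adjusted p under 0.05.

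Hormone receptor genes of the hypothalamus were all higher under TNF-/-, in 8 of 8 measured of 10 listed, with a median of 0.10, where 47.8% of all genes were higher. In limma or SAM 0 passed, while 2 had an unadjusted p under 0.05, against 10.8% of all probe sets. Glp1r, the receptor of glucagon-like peptide 1, had signals of 5.09, 5.07, 5.18 and 5.35 in TNF-/- arrays 1 to 4 and 4.66, 4.78, 4.89 and 4.91 in TNF+/+ arrays 1 to 4. The groups did not overlap, and the difference was 0.36 ± 0.08 (SE; limma, adjusted p = 0.247). Such groups, with TNF-/- on top, occurred in 3.15% of all probe sets. Lepr, the leptin receptor gene, had signals of 4.85, 4.83, 4.65 and 4.61 under TNF-/- and 4.51, 4.25, 4.52 and 4.41 under TNF+/+, again without overlap. Its difference was 0.31 ± 0.09 (SE; adjusted p = 0.286), and that of Mc4r, the melanocortin receptor gene of energy balance, was 0.17 ± 0.08 (SE; adjusted p = 0.482).

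Genes of tissue beside the hypothalamus gave 0 calls in limma or SAM in the lists of tanycytes (7 measured, 1 at an unadjusted p under 0.05), pituitary (8, 1), striatum (8, 0), thalamus (10, 2), cortex and hippocampus (6, 1), cerebellum (8, 0) and choroid plexus (8, 1). Over all probe sets 10.8% had an unadjusted p under 0.05. The summed linear signal of pituitary genes was 120.2 to 120.8 under TNF-/- and 122.0 to 131 under TNF+/+, with 4 of the 8 below the 25th percentile in all arrays. That of tanycyte genes was 549.5 to 682 and 616 to 682, and that of striatal genes, where Six3 and Isl1 are also used, was 6409 to 6781 and 6411 to 6908. That of thalamic genes was 2638 to 3161 and 2604 to 2770, and that of cortical and hippocampal genes 2530.3 to 2814 and 2768 to 3018. That of choroid plexus genes was 3820.3 to 4384 and 3405 to 4203, and that of cerebellar genes 573 to 626 and 525 to 1650.3. Among the hypothalamic lists, the sum of the other transcription factors was 1307 to 1369 under TNF-/- and 1169.9 to 1303 under TNF+/+, and that of the hormone receptors was 347 to 365 and 323 to 334. That of the peptides was 1171 to 1253 and 946 to 1307, and that of the other histamine genes 993 to 1168 and 945 to 1028. Groups did not overlap in the sums of transcription factors and hormone receptors, which were higher under TNF-/-, nor in the pituitary sum, which was lower. The other sums given did overlap. Bright genes weigh most in a linear sum, and the brightest of the transcription factors were Arnt2 (means 8.62 and 8.47) and Pou3f2 (8.55 and 8.43). The mean log2 signal of the transcription factor list overlapped, at 4.703 to 4.738 under TNF-/- and 4.652 to 4.705 under TNF+/+, with 12 genes higher and 12 lower. The list means of hormone receptors and pituitary did not overlap. The part of these lists in any result above was not tested.

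Finally, genes with the most similar pattern were sought for Hdc and Otp among 19938 genes. Pearson's r of deviations from the group means over the 8 arrays was used, as a description with no p. The highest r of so many genes over so few arrays is large by selection, and nothing is read from its size. Most like Hdc were Asb13 (r = 0.99), Cln3, Haghl, Dolk and Lrrc28 (r = 0.98 each). Hdc differed by 0.47 between the groups, Asb13 by 0.18 and the other 4 by 0.02 to 0.14. Most like Otp was Opalin (r = 0.99), a membrane protein gene of myelinating oligodendrocytes. Opalin signals were 6.95, 6.86, 6.93 and 7.01 in TNF-/- arrays 1 to 4, and 7.17, 7.42, 7.39 and 7.31 in TNF+/+ arrays 1 to 4. Like Otp it was lower in all 4 arrays labelled TNF-/-, by -0.38 (limma, adjusted p = 0.139). Next came Syt9 and 5033430I15Rik (r = 0.97 each) and BC002059 and Ltb4r1 (r = 0.96 each), with differences from -0.13 for Ltb4r1 to 0.22 for BC002059.

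**Figure D5:**
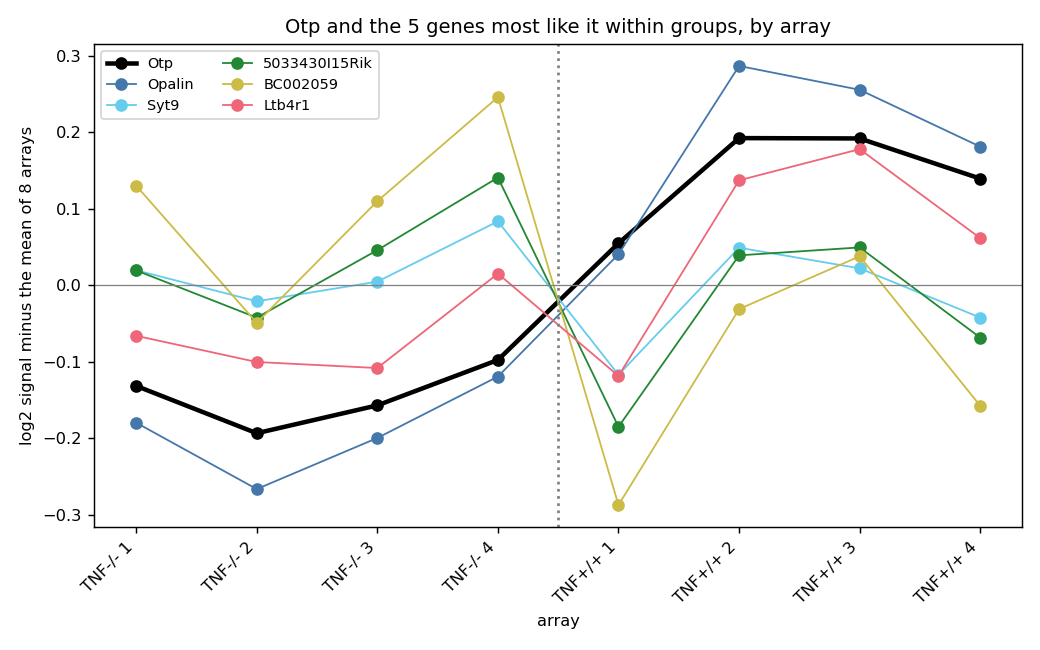
The log2 signal of Otp (black) and of the 5 genes with the highest r to it within groups, each minus its mean over 8 arrays (vertical axis), in each array (horizontal axis); lines only join the points of a gene, and the dotted line parts the groups. Otp and Opalin are low in all 4 arrays labelled TNF-/-, whereas Syt9, 5033430I15Rik and BC002059 are not.

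The genes that lie beside Hdc on chromosome 2 and Otp on chromosome 13, 3 measured ones on each side in the gene order of GRCm38.p6, were looked at after the values were seen. None of the 12 passed in limma or SAM, and 1 had an unadjusted p under 0.05, against 10.8% of all probe sets. Beside Hdc the differences ran from -0.16 (Atp8b4) to 0.25 (Slc27a2), and Slc27a2, a fatty acid transporter gene next to Hdc, differed by 0.25 ± 0.07 (SE; limma, adjusted p = 0.331). Beside Otp they ran from -0.07 (Ap3b1) to 0.09 (Pde8b).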

How the data were processed

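RNA of 8 brain samples was measured on 8 arrays. The authors deposited log2 signals, normalized by them; GCOS, GCRMA and Partek are the tools named in the submitters' processing notes, with no version, role or genome build. That they are log2 was read off the values (2.83 to 14.1). Values were used unfiltered. Groups came from the titles. Of 35556 probe sets 21789 pair with 1 symbol in the platform annotation, 1621 with several and 12146 are not listed; each gene is its brightest probe set, and all 10 members matched RefSeq (GRCm38.p6) by gene ID.

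Limma 3.58.1 under R 4.3.3 compared the groups (lmFit and eBayes, two-sided p adjusted by Benjamini-Hochberg across the full table, called where under 0.05), and with SAM rebuilt over 70 assignments (false discovery rate 4.49%). Correlations used exact permutation of arrays within groups (576 arrangements), adjusted over the pairs. SE is limma's moderated standard error. Where replicates came from separate mice is not stated beyond the word biological, so p-values measure the spread between these samples, which 4 arrays per group limit. Code was tested on simulated data. The members and lists were chosen with earlier results of these data known. Named list genes are the 3 with the smallest p of the histamine, transcription factor, peptide and receptor lists, and the 5 genes most like Hdc or Otp. Further genes were named after their values were seen, for their role in the members' pathway, their brightness, their unadjusted p or as examples of a list. Alternatives were other scalings, filters, variance models, array weights, the replicate block and leaving out arrays. Plots used matplotlib 3.10.9.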

Additional observations from a re-analysis of the deposited data

Results flagged for a closer look

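In each group of 4 arrays the highest or lowest value was compared with the rest for the 10 genes, Tnf, the named list genes and the list means. One array stood apart in 9 of 74 groups, where chance gives about 5%. Among the 10 genes this was Six3 in TNF+/+ array 3, at 4.15. Among list genes it was Slc18a2 in TNF+/+ array 3, at 6.46, and Pmch in TNF-/- array 2, at 6.24. Among list means it was the hypothalamic peptides in TNF+/+ array 1 (5.11), the cerebellum in TNF+/+ array 1 (6.86) and the brain cell markers in TNF-/- array 3 (9.35). It was also the tanycytes in TNF-/- array 4 (5.91), and cortex and hippocampus in TNF-/- array 4 (7.41) and TNF+/+ array 4 (7.50).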

How the results depend on the processing

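Hdc stayed higher and Otp lower in all alternatives that kept them: 0.39 to 0.53 for Hdc and -0.32 to -0.27 for Otp. Both were picked from these arrays and their groups do not overlap, so leaving out arrays could not change the sign. The replicate block, the intensity trend and the filters leave each difference as in the main fit, so they could not change it either. The fits covered leaving out each array in turn, both TNF+/+ arrays 3 and 4 (0.53 and -0.27), other scalings, variance models and array weights. None of the 8 genes chosen by name passed in any of these fits. Leaving out dim probe sets kept Otp alone of the 10 genes. Having 1 probe set each, the genes gave no second probe set to try.

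Small differences changed sign. Nr5a1 (0.01) was -0.0116 with arrays centred on their medians, -0.00041 with array weights and -0.0482 without TNF+/+ arrays 3 and 4, where Nkx2-1 was -0.00483. With 1 array left out Nr5a1 ran from -0.0315 to 0.0294, Nkx2-1 from -0.0107 to 0.101 and Sim1 from -0.0032 to 0.0664. The genes higher under TNF-/- numbered 3 of 10 without TNF+/+ arrays 3 and 4, and 4 or 5 with 1 array left out. The median of the 10 genes (-0.03) was 0.01 after quantile normalization and -0.03 to -0.01 with 1 array left out.

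Over all probe sets limma called 29 (13 higher, 16 lower), 63 (42 and 21) among probe sets with 1 symbol, which are fewer tests, and 1 to 20 with 1 array left out, the lowest without TNF+/+ array 3. It called 0 without TNF+/+ arrays 3 and 4, where SAM was not run, and SAM called 53 (32 and 21) with all arrays. With the replicate block limma called 0. The difference of Hdc was 0.47 as without it, which the block cannot change with 1 array per number and group. Same-numbered arrays deviated together with r of 0.07 to 0.11, and 3 of 4 arrays labelled TNF-/- correlated best with their own number. The titles do not say whether equal numbers mark pairs. The main fit did not take them as pairs, and these values do not settle whether they are. The 4 arrays per group limit what can be shown for the 9 genes whose signal lay below the array median. No pair of the 10 genes passed after quantile normalization or with 1 array left out.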
